A study of Mus musculus with 531 samples.

Results

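The endocytic receptor genes *Cubn*, *Amn*, *Lrp2* and *Dab2* are 4 of the 22084 genes in a table of read counts from single cells of early mouse embryos. They were chosen by symbol, and each was followed by stage, embryo and lineage in the cells that held at least 50000 reads and 2000 detected genes, which 217 of 264 cells did. The cells were C57Bl/6Babr embryo cells taken at embryonic day 4.5 (E4.5) and on the 2 following days (E5.5 and E6.5), and the labels give no treatment and no altered genotype. RNA and DNA of each cell had been separated by scM&T-seq, which reads the transcriptome and the methylome of 1 cell in parallel, and the RNA had been read with Smart-seq2, a full-length protocol without molecular identifiers. The bisulfite libraries were not analysed here.

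After filtering, 75 cells came from 5 embryos at E4.5, 59 cells from 1 embryo at E5.5 and 83 cells from 2 embryos at E6.5. Embryos are counted by their numbers in the labels, and the study's own methods give one embryo fewer for the earliest stage. Some numbers there may therefore share an animal, which would make n too high and p-values over embryos too small. The trophectoderm had been removed from the E4.5 embryos by immunosurgery, the visceral endoderm and the extraembryonic ectoderm had been pulled off the E5.5 epiblast, and extraembryonic tissue had been dissected from the E6.5 embryos, so the endoderm cells that remained depend on that dissection. Over the stages in order, the median depth was 918469, 1511811 and 1107378 reads per cell. The labels carry cell prefixes of unstated meaning that no stages share (P1 and P2 at E4.5), so prefix and stage cannot be told apart.

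Cubilin, the product of *Cubn*, and amnionless, the product of *Amn*, form one receptor in which cubilin binds the ligand and amnionless spans the membrane and brings cubilin to the cell surface. Megalin, encoded by *Lrp2*, is a giant receptor of the LDL receptor family that shares ligands with cubilin, and *Dab2* encodes an adaptor that ties the tails of such receptors to clathrin coats. Primitive endoderm arises in the blastocyst and gives rise to the visceral endoderm, the epithelium around the epiblast that takes up maternal proteins, lipids and vitamins through these receptors.

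The 4 genes lie on 3 chromosomes of GRCm38 and differ widely in size. *Cubn* (ENSMUSG00000026726) spans chr2:13276338-13491813 on the minus strand, and *Lrp2* (ENSMUSG00000027070) spans chr2:69424340-69586065 on the same strand. *Amn* (ENSMUSG00000021278) is the smallest, at chr12:111271095-111276426 on the plus strand. *Dab2* (ENSMUSG00000022150) lies at chr15:6299788-6440712 on the plus strand. The joined exons measure 14.9 kb for *Cubn*, 16.7 kb for *Lrp2*, 7.34 kb for *Dab2* and 1.84 kb for *Amn*. *Cubn* overlaps 1 and *Dab2* 2 other annotated genes on the opposite strand, none of which has a row in the count table, whereas *Amn* and *Lrp2* overlap none. Whether the counting used strand is not given in the sources used here.

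The promoters are shown because *Lrp2*, unlike the other 3 genes, was read in most E5.5 epiblast-like cells and passed the test between E4.5 and E6.5, although all 4 genes mark the same lineage. The windows run from 250 bases before to 50 bases after the RefSeq start, read 5′ to 3′ on the gene's strand from GRCm38.p6, and capitals mark CG dinucleotides and, in *Dab2*, the GATA words TGATAA and AGATAA (the latter as its reverse complement).
Cubn, chr2:13491827-13492126, minus strand: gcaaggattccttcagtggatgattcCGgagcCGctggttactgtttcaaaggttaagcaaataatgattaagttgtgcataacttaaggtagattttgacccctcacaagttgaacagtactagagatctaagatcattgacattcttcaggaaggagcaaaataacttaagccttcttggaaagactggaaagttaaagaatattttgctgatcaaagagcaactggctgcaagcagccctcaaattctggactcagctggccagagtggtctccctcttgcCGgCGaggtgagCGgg
Amn, chr12:111270846-111271145, plus strand: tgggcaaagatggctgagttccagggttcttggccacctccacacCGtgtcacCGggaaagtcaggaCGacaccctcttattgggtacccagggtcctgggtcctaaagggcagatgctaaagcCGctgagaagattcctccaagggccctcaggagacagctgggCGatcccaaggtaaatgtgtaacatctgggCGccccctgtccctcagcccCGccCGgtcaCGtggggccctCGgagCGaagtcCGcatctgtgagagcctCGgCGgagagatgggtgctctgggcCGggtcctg
Lrp2, chr2:69585980-69586279, minus strand: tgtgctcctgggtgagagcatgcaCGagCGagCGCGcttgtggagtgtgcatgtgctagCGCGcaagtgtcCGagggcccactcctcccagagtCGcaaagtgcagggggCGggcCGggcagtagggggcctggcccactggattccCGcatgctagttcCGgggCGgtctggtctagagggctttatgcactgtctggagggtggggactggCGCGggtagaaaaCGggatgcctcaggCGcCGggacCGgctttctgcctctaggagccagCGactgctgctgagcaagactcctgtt
Dab2, chr15:6299539-6299838, plus strand: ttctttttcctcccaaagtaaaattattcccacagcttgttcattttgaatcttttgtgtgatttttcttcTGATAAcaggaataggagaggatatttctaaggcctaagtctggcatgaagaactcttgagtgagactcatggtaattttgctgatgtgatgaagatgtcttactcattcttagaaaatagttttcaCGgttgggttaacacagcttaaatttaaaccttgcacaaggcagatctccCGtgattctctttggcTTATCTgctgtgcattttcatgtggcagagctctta
The windows of *Lrp2* and *Amn* held 20 and 15 CG dinucleotides, against 5 for *Cubn*, 2 for this start of *Dab2* and a median of 7 over 32851 promoters. A second RefSeq start of *Dab2*, at chr15:6386498-6386797, held 19. The words searched on both strands were, for GATA factors, AGATAA along with the variant TGATAA, then the word AGATAG along with the variant TGATAG. They share the letters GATA, and matches can overlap. The word GTTAAT stood for HNF1, the word CAAAGTCCA for HNF4 and the word AACAAT for SOX factors. Only *Dab2* held any of them, with TGATAA starting 179 bases upstream and AGATAA within the first 50 bases of its first start, and GTTAAT 65 bases upstream of its second. Of all promoters, 9.05% held TGATAA, 11.2% AGATAA, 7.10% GTTAAT, 0.475% CAAAGTCCA and 10.7% AACAAT, and 29.8% held at least 1 of the 4 GATA words.

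Lineages were set within each stage from clusters that used neither the 4 genes nor a list of 70 other endocytosis genes. A marker counted as raised where its mean level, as log2(CPM + 1) with CPM the read count scaled to a common total per cell, was higher by at least 1 than in the other cells and at least 50% of the cluster's cells held a read. The class called endoderm-like raised 13 of 13 endoderm markers over the other cells at E4.5, while it raised 9 of 13 at E5.5 and 12 of 13 in E6.5 embryos. It held 50 cells at E4.5 (between 4 and 18 per embryo), 7 at E5.5 and 14 at E6.5, of which 12 were from embryo 1 and 2 from embryo 2. The epiblast-like class raised 9 of 9 epiblast markers at E4.5 (24 cells) and 8 of 9 at E5.5 (51 cells). At E6.5, 24 cells were mesoderm-like, with 7 of 8 mesoderm markers raised, and 45 cells stayed unnamed, with at most 2 markers of any list raised. The E6.5 mesoderm-like cluster also raised 5 endoderm and 5 epiblast markers, and the E6.5 endoderm-like cluster 6 of 8 trophectoderm markers. A cell at E4.5 and another at E5.5 clustered with the epiblast-like cells without a lower level of endoderm than of epiblast markers, and were left unassigned. All 8 kept E5.5 cells outside the epiblast-like class, and no other kept E5.5 cell, had a cell number that is a multiple of 12, and what that number marks is not given in the sources used here.

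The endoderm-like class was not free of other markers, and their part in the results was not tested. Of the epiblast markers, 6 of 9 had a median of 0 CPM at E4.5, as had 8 of 9 in E5.5 and 2 of 9 in E6.5 cells. The summed level of the 9 markers ranged from 107 to 1821 CPM at E4.5, from 3.26 to 217 CPM at E5.5 and from 111 to 1391 CPM at E6.5. Its E6.5 median was 454 CPM in the 12 cells of embryo 1 and 1099 CPM in the 2 cells of embryo 2. Of 8 trophectoderm and extraembryonic ectoderm markers, 6 had a median of 0 CPM in E4.5 cells, all 8 in E5.5 cells and 1 in E6.5 cells, where their sum was 52.7 to 538 CPM. Mesoderm markers had a median of 0 CPM in 8 of 8, 6 of 8 and 3 of 8 cases at the 3 stages. In the same cells the 13 endoderm markers summed to a median of 6079, 4760 and 6105 CPM.

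All 4 genes were read in every endoderm-like cell of every embryo. At E4.5 this was 50 of 50 cells (92.9% to 100%, exact 95% binomial interval), at E5.5 7 of 7 cells (59% to 100%) and at E6.5 14 of 14 cells (76.8% to 100%). The intervals cover counting error over cells only. After each cell was thinned to 50000 reads, all 4 genes were still read in 50, 7 and 13 of these cells, and the gene lost in the remaining cell was *Lrp2*. None of the 4 genes had been used to find the clusters. Ranks were taken among genes with a mean of at least 10 CPM in the endoderm cluster, where these genes are high. They are a description with no test. Among 7763 such genes at E4.5 *Cubn* had the largest and *Amn* the second largest difference between the endoderm cluster and the other cells, with *Dab2* at rank 5 and *Lrp2* at rank 16. The ranks of *Cubn*, *Amn*, *Dab2* and *Lrp2* were 11, 5, 14 and 167 of 6281 genes in the E5.5 cells, and 13, 39, 134 and 293 of 7935 genes in the E6.5 cells.

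Epiblast-like cells read *Lrp2* far more often than the other 3 genes at E5.5. At that stage *Cubn* had a read in 0 of 51 epiblast-like cells, which allows a share of up to 5.88% by a floor of 3 counts and 6.98% by the exact interval, *Amn* in 8 (15.7%, 7.02% to 28.6%), *Dab2* in 9 (17.6%, 8.4% to 30.9%) and *Lrp2* in 38 (74.5%, 60.4% to 85.7%). After thinning to 50000 reads the shares were 0% for *Cubn*, 7.84% for *Amn*, 9.8% for *Dab2* and 62.7% for *Lrp2*. Median depth was 1497628 reads in these cells and 1772155 in the endoderm-like cells of the embryo. Of the 51 cells, 25 held reads of *Lrp2* alone, 10 held none of the 4 genes and none held all 4. The median of *Lrp2* was 57.1 CPM in epiblast-like cells, which reached up to 647 CPM, and 930 CPM in endoderm-like cells.

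At E4.5 the epiblast-like class was less uniform. Its shares with a read were 62.5% for *Cubn*, 54.2% for *Amn*, 70.8% for *Dab2* and 87.5% for *Lrp2*, but the medians were 1.31, 0.862, 8.46 and 66.7 CPM. After thinning to 50000 reads the shares were 33.3%, 33.3%, 45.8% and 66.7%. All 4 genes were read in 11 of the 24 cells, and at a minimum of 10 CPM for each gene in 6. Of these 6 cells, 5 also held reads of at least 11 of 13 endoderm markers and are described below, while the remaining cell held reads of 7.

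**Figure D1:**
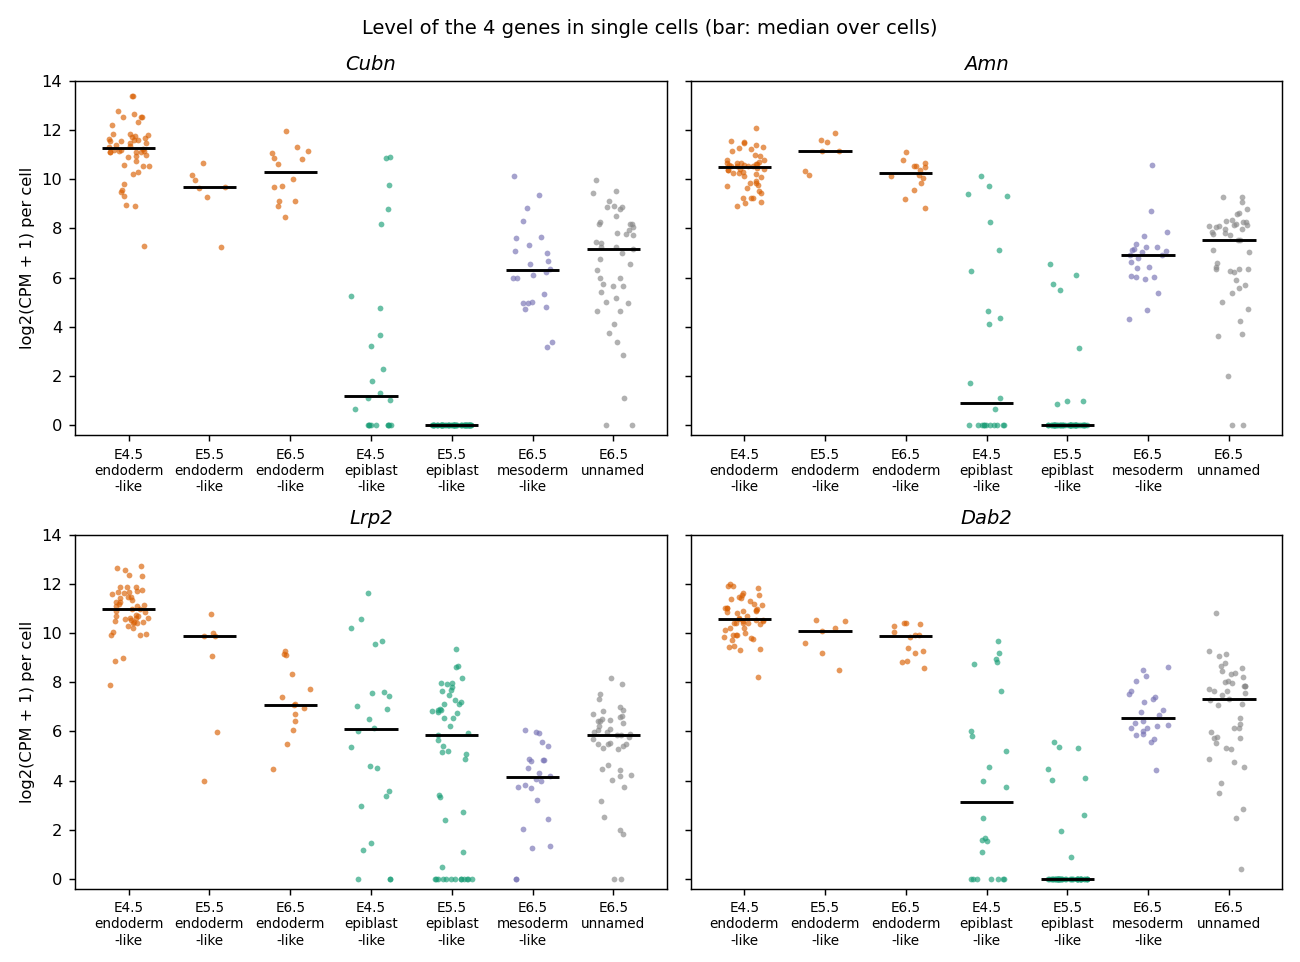
Level of each gene, as log2(CPM + 1), in single cells by stage and class, with 1 point per cell and a bar at the median over cells. The medians of *Cubn* and *Amn* in E5.5 epiblast-like cells are at 0, while that of *Lrp2* is at 57.1 CPM, and *Lrp2* in E6.5 endoderm-like cells has a median of 135 CPM against 2026 CPM at E4.5.

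**Figure D2:**
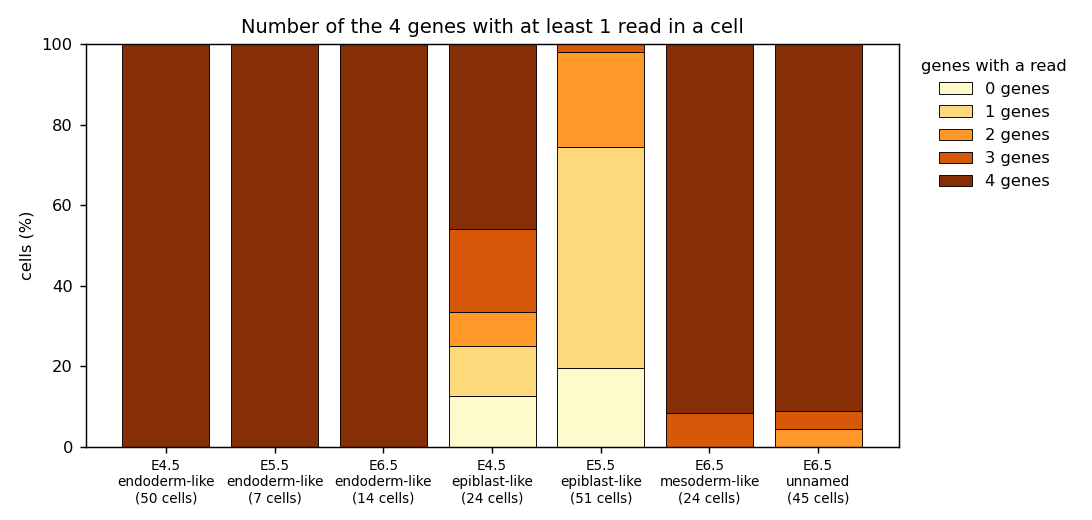
Share of cells (%) with a read of 0, 1, 2, 3 or 4 of the 4 genes, by stage and class, with the number of cells under each bar. All 4 genes were read in 100% of the endoderm-like cells at each stage, in 45.8% of E4.5 epiblast-like cells and in none of the 51 E5.5 epiblast-like cells.

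Per embryo at E4.5, each of the 4 genes was higher in the endoderm-like than in the epiblast-like cells of all 5 embryos. The lineage difference, on the log2(CPM + 1) scale averaged over cells, was 9.91, 11.1, 8.20, 7.4 and 4.40 for *Cubn* in embryos 1 to 5, a mean of 8.21 ± 2.57 (SD, n = 5). For *Amn* it was 8.0, 10.1, 6.00, 7.54 and 2.88, a mean of 6.91 ± 2.69. For *Dab2* it was 7.48, 9.46, 5.45, 6.496 and 4.83, a mean of 6.74 ± 1.83. Embryo 5 had the smallest difference for all 4 genes and embryo 2 the largest.

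*Lrp2* had the smallest mean difference of the 4, with 4.89, 9.44, 4.75, 5.66 and 2.67 in embryos 1 to 5 and a mean of 5.48 ± 2.47 (SD, n = 5). Within each embryo its difference was below that of *Cubn*. Because lineages were set from expression and these genes are known for this pattern, the differences are a description with no test. As a background, 3.25% of 15471 genes were higher by at least 1 on this scale in the endoderm-like cells of every embryo, a rule that all 4 genes met, with mean differences at ranks 1 (*Cubn*), 4 (*Amn*), 5 (*Dab2*) and 21 (*Lrp2*). In the E5.5 embryo the differences were 9.52, 10.53, 9.13 and 3.90 in the order *Cubn*, *Amn*, *Dab2* and *Lrp2*.

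At E4.5, 5 of the 24 epiblast-like cells, from 4 embryos, stood apart. These cells held reads of 9 of 9 epiblast markers and of 11 to 13 of 13 endoderm markers, and their marker difference (mean level of the endoderm minus that of the epiblast markers) was between -2.71 and -0.38, against -7.43 to -4.70 in the other 19. *Cubn* was at 287 to 1907 CPM in the 5 cells and at 0 to 37.5 CPM in the 19. *Amn* was at 309 to 1116 CPM against 0 to 137 CPM and *Dab2* at 428 to 810 CPM against 0 to 199 CPM. For *Lrp2* the ranges were 754 to 3146 CPM and 0 to 194 CPM. The 5 cells were set apart by lineage markers, and the share of all genes whose ranges separate in this way was not counted. Median depth was 699400 and 808200 reads. Whether a second cell or its RNA entered these libraries was not tested. Embryo 5 held 2 of the 5 among its 4 epiblast-like cells and embryo 2 held none, the embryos with the smallest and the largest lineage difference. Without the 5 cells, which was tried after seeing the data, the mean differences were 9.84 ± 1.59 for *Cubn*, 8.17 ± 2.19 for *Amn*, 8.05 ± 1.22 for *Dab2* and 6.48 ± 1.78 for *Lrp2*.

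**Figure D3:**
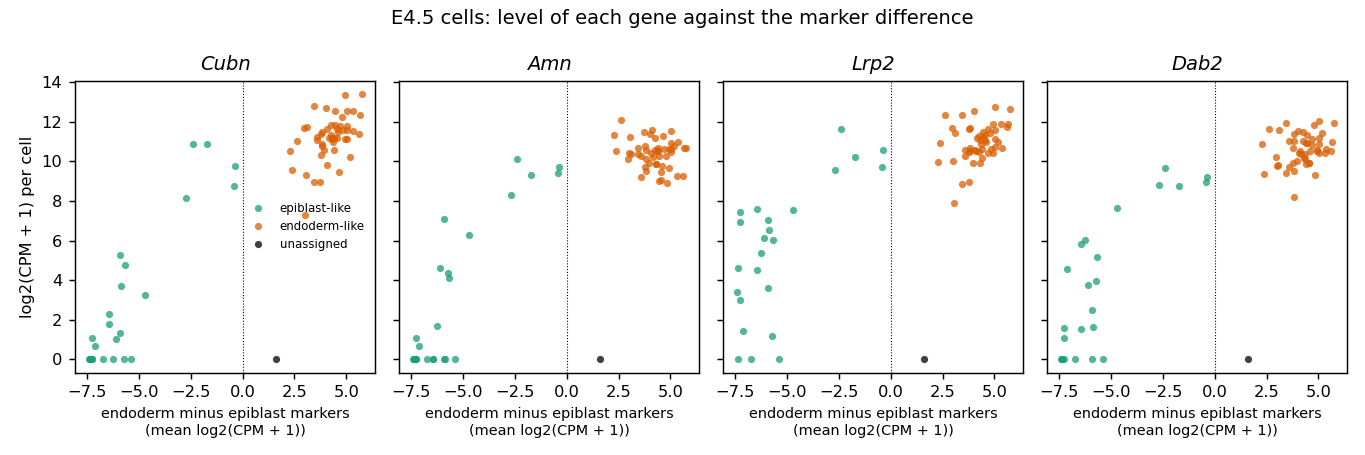
Level of each gene in E4.5 cells (vertical axis, log2(CPM + 1)) against the difference between the mean levels of endoderm and epiblast markers (horizontal axis), with 1 point per cell coloured by class. The 5 epiblast-like cells with a marker difference between -2.71 and -0.38 reach 1907 CPM of *Cubn* and 3146 CPM of *Lrp2*. In the other 19, *Lrp2* reaches 194 CPM and *Cubn* 37.5 CPM.

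Among the genes, levels can be compared per kb of exon. In E4.5 endoderm-like cells *Amn* stood first with 743 ± 309 CPM per kb (SD, n = 5 embryos), followed by *Dab2* with 219 ± 64.5, *Cubn* with 191 ± 59.9 and *Lrp2* with 146 ± 42.7. Each neighbouring pair among the last 3 differed by less than the SD of its higher member. The order was the same in the E5.5 embryo, at 1285, 141, 53.8 and 39.5 CPM per kb. At E6.5 it was again the same, at 639 ± 109, 99.5 ± 45.8, 82.9 ± 43.4 and 11.6 ± 7.76 CPM per kb (n = 2), but *Lrp2* now lay well below the others. Coverage along such long transcripts as *Cubn* and *Lrp2* was not measured in these tables, so the order between genes depends on even coverage.

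Among the stage comparisons within endoderm-like cells, which address how the receptor genes fared as primitive endoderm became visceral endoderm, *Lrp2* had the largest change of the 4 genes. Reads were summed over the endoderm-like cells of each embryo. At E4.5 *Lrp2* was at 2035, 2502, 2517, 1496 and 3756 CPM in embryos 1 to 5, at E5.5 it was at 747 CPM in the only embryo, and at E6.5 it was at 273 and 93 CPM in embryos 1 and 2. The 3 stages did not overlap. The share of all genes that separate by stage in this way was not counted, here or for the genes below. *Lrp2* fell by 3.74 ± 0.49 on the log2 scale (SE) from E4.5 to E6.5, a 13.3-fold lower level (adjusted p = 4.06e-05, edgeR).

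The call for *Lrp2* between E4.5 and E6.5 stood under 22 of 22 alternatives, with changes from -4.75 to -3.17 and adjusted p from 6.82e-16 to 0.0247. The largest of these came without E6.5 embryo 1 (-4.75, adjusted p = 0.00125), which leaves 2 cells at that stage. Against the E4.5 embryos of prefix P1 alone the change was -3.63 (adjusted p = 1.34e-05), and against those of prefix P2 it was -3.81 (4.88e-05). Over all 13229 genes tested, 3.93% were called in this comparison in either direction and 1.82% as lower, and the median change was -0.08. Among 119 genes with at least 10 kb of exon and a mean of at least 100 CPM, the median change was -0.34 and *Lrp2* had the fourth lowest value. The intermediate steps were less secure. From E4.5 to E5.5 *Lrp2* fell by 1.72 ± 0.58 (adjusted p = 0.0492, with 14.8% of genes called in either direction and 10.4% as lower), a call that was lost without E4.5 embryo 2 (-1.71, adjusted p = 0.0642), 3 (-1.71, 0.0565) or 5 (-1.52, 0.0648). From E5.5 to E6.5 it fell by 2.02 ± 0.54 (adjusted p = 0.0276, with 7.58% called in either direction and 1.14% as lower), a call that was lost without E6.5 embryo 2, which gave only 2 cells (-1.45, adjusted p = 0.237), and that was -3.08 without E6.5 embryo 1 (0.0213).

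*Cubn* passed the threshold only between E4.5 and E5.5. It was at 3499, 2326, 2773, 1743 and 3877 CPM in the 5 E4.5 embryos, at 911 CPM at E5.5 and at 1625 and 709 CPM in the 2 E6.5 embryos. It fell by 1.64 ± 0.53 from E4.5 to E5.5 (adjusted p = 0.0416), a call lost without E4.5 embryo 3 (-1.65, adjusted p = 0.0505) or 5 (-1.51, 0.0553). The difference from E4.5 to E6.5 was -1.28 ± 0.38 (adjusted p = 0.0689) and passed without E4.5 embryo 4 (-1.42, 0.0473). Without E6.5 embryo 2, which gave 2 cells, it was -0.81 (adjusted p = 0.76), and without E6.5 embryo 1 it was -2.03 (0.0755). Between E5.5 and E6.5 the difference was 0.36 ± 0.53 (adjusted p = 0.705). Leaving out each embryo in turn gave -0.43 to 0.83, so its direction was not settled.

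The median change over genes in the E5.5 comparisons depended on their level, and the gene set taken as reference touches these calls. The median change over all genes tested was -1.16 from E4.5 to E5.5 and 0.86 from E5.5 to E6.5, and relative to the first of these the difference was -0.49 for *Cubn* and -0.56 for *Lrp2*. Over the 339 genes with a mean of at least 500 CPM, which include all 4, the medians were 0.04 and -0.35. The lone E5.5 embryo was assumed to vary like the others, and both comparisons with E4.5 share the same 5 embryos.

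*Amn*, whose product anchors cubilin, passed the threshold in no comparison. It was at 1205, 1132, 534, 2008 and 2152 CPM in the E4.5 embryos, at 2685 CPM at E5.5 and at 1264 and 941 CPM at E6.5, so the E6.5 values lay inside the E4.5 range and the E5.5 value above it. The differences were 0.93 ± 0.49 for E5.5 minus E4.5 (adjusted p = 0.216), -0.35 ± 0.41 for E6.5 minus E4.5 (0.738) and -1.28 ± 0.57 for E6.5 minus E5.5 (0.178).

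*Dab2*, the adaptor, was at 1421, 1013, 1433, 1697 and 2591 CPM at E4.5, at 1174 CPM at E5.5 and at 928 and 448 CPM at E6.5. Both E6.5 embryos lay below all E4.5 embryos and the E5.5 embryo lay within their range. The difference was -0.47 ± 0.50 for E5.5 minus E4.5 (adjusted p = 0.505) and -0.77 ± 0.52 for E6.5 minus E5.5 (0.381). For E6.5 minus E4.5 it was -1.24 ± 0.39 (adjusted p = 0.0886), and it passed without E4.5 embryo 1 (-1.29, 0.0471). Without E6.5 embryo 2 it was -0.82 (adjusted p = 0.794), and without E6.5 embryo 1 it was -1.89 (0.121). In bulk sums of this kind, fewer cells with a gene and less RNA per cell cannot be told apart from the sums alone, although all 71 endoderm-like cells held reads of *Dab2*.

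**Figure D4:**
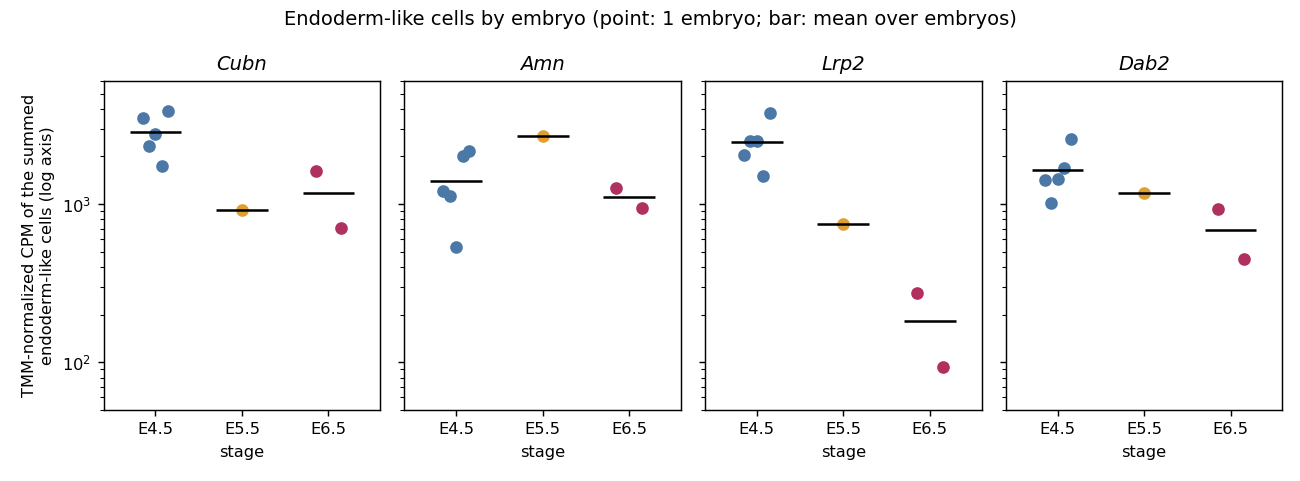
TMM-normalized CPM of the summed endoderm-like cells (log axis) by stage, with 1 point per embryo and a bar at the mean over embryos. *Lrp2* steps down from 1496 to 3756 CPM at E4.5 through 747 CPM at E5.5 to 93 and 273 CPM at E6.5, while *Amn* at E6.5 (941 and 1264 CPM) lies inside its E4.5 range.

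Ratios between the genes do not depend on how libraries were scaled. The log2 ratio of *Cubn* to *Lrp2*, per kb of exon, was 0.94, 0.06, 0.30, 0.38 and 0.21 in the E4.5 embryos and 0.45 at E5.5, and it was 2.73 and 3.09 in the E6.5 embryos. Between *Lrp2* and *Dab2* the ratio was between -1.37 and 0.12 at E4.5, -1.84 at E5.5 and -2.95 and -3.45 at E6.5. Per cell, *Lrp2* exceeded *Cubn* per kb in 11 of 50 E4.5 cells, in 2 of 7 E5.5 cells and in 0 of 14 E6.5 cells. In all 14 E6.5 cells *Lrp2* was the lowest of the 4 genes per kb.

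Within a stage the endoderm-like cells still varied widely. At E4.5 *Cubn* ranged from 153 to 10690 CPM over the 50 cells, *Lrp2* from 239 to 6810 CPM, *Dab2* from 298 to 4136 CPM and *Amn* from 476 to 4330 CPM. The E5.5 cells differed most in *Lrp2*, which was at 14.6, 62, 542, 930, 934, 1015 and 1774 CPM in the 7 cells. The cells with 14.6, 62 and 1774 CPM had 3350, 3960 and 3859 detected genes. They fail the stricter cell filter used as an alternative, which asked for 4000, and the rest lay between 542 and 1015 CPM. The cell with 62 CPM had reads of 5 of 5 anterior visceral endoderm markers (*Cer1*, *Lefty1*, *Hhex*, *Lhx1* and *Dkk1*), which summed to 3086 CPM against 134 to 1745 CPM in the other 6 cells. The cell with 14.6 CPM had reads of 2 of them (626 CPM), and the cell with 1745 CPM of these markers had 934 CPM of *Lrp2*. Over cells the Pearson correlation of *Lrp2* with the marker level was 0.110, -0.430 and -0.448 at the 3 stages in order. At E6.5 *Lrp2* ranged from 20.9 to 613 CPM and the 5 markers summed to a median of 102 CPM.

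Cells with more *Cubn* also held more *Lrp2*. The Pearson correlation of their log2(CPM + 1) levels was 0.719 over the 50 E4.5 cells, 0.687 with each embryo centred, and 0.832 over the 14 E6.5 cells. Over the 7 E5.5 cells it was 0.725, with a Spearman correlation of 0.357. The correlation of *Cubn* with *Amn* was -0.146, -0.092 and 0.471 at the 3 stages. For *Dab2* the correlations with *Cubn*, *Lrp2* and *Amn* were 0.490, 0.490 and 0.353 at E4.5, -0.288, 0.038 and -0.056 at E5.5, and 0.482, 0.204 and 0.681 at E6.5. These are descriptions over cells that share embryos, and cells are not replicates.

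Both genes also moved with the difference between endoderm and epiblast markers, at 0.490 for *Cubn* and 0.343 for *Lrp2* at E4.5 and at 0.744 and 0.665 at E6.5, and its part in their correlation was not tested. Depth moved with these levels, and not in the same way at each stage. At E4.5 the correlation with the log2 number of reads per cell was -0.493 for *Cubn*, -0.309 for *Lrp2*, 0.106 for *Dab2* and 0.429 for *Amn*. After depth was taken out, *Cubn* correlated with *Lrp2* at 0.685 and with *Amn* at 0.084 at E4.5. At E6.5 the correlation with depth was 0.277 for *Cubn* and 0.528 for *Lrp2*, and at E5.5 it was -0.677 and -0.745. Over genes with a mean of at least 100 CPM the median E4.5 correlation with depth was -0.105 for 126 genes of at least 10 kb, -0.165 for 1292 genes of 2 to 10 kb and -0.028 for 438 genes under 2 kb. The part of length and depth in these correlations was not tested further.

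**Figure D5:**
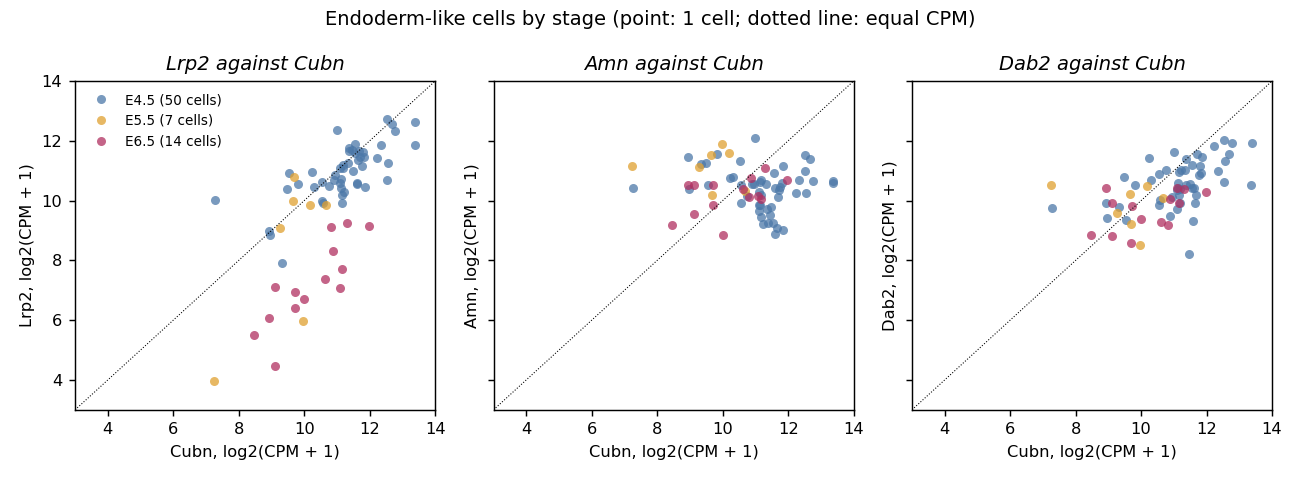
Levels of *Lrp2*, *Amn* and *Dab2* against *Cubn* in endoderm-like cells, as log2(CPM + 1) on both axes, with 1 point per cell coloured by stage and a dotted line of equal CPM. In the *Lrp2* panel the 14 E6.5 cells lie low, at 20.9 to 613 CPM against 239 to 6810 CPM at E4.5, with log2 ratios of *Cubn* to *Lrp2* per kb of 2.73 and 3.09 in the summed embryos against 0.06 to 0.94 at E4.5.

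At E6.5 reads of the 4 genes were found in nearly all cells, also outside the endoderm-like class. *Cubn* had a read in 24 of 24 mesoderm-like and 43 of 45 unnamed cells, and *Dab2* in all 69 of them. All 4 genes were read in 22 of 24 mesoderm-like and 41 of 45 unnamed cells, and in 10 and 28 of them after thinning to 50000 reads. The medians in mesoderm-like cells were 77.5 CPM for *Cubn*, 120 CPM for *Amn*, 91.8 CPM for *Dab2* and 16.5 CPM for *Lrp2*, which were 5.97%, 9.70%, 9.81% and 12.2% of the endoderm-like medians. By mean CPM the shares were 11.5%, 14.6%, 15.3% and 9.86%, so that *Lrp2* went from the highest to the lowest of the 4. The only mesoderm-like cell of embryo 1 had no read of the 8 mesoderm markers and held 1125 CPM of *Cubn* and 1520 CPM of *Amn*, the highest of the class for both. Genes of carrier proteins made by the visceral endoderm stood at 5.89% (*Trf*), 8.62% (*Apob*), 8.64% (*Apoa1*), 11.5% (*Ttr*) and 20.1% (*Rbp4*) there.

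In the unnamed cells the shares were 11.1% for *Cubn*, 14.9% for *Amn*, 17.1% for *Dab2*, 41.4% for *Lrp2* (median 55.99 CPM), and among carrier proteins 16.1% for *Rbp4*, 17.8% for *Apoa1*, 19.2% for *Apob*, 24.3% for *Ttr* and 37.1% for *Trf*. The order depended on the statistic, since by mean CPM the shares were 13.8%, 15.8%, 24.6% and 29.8% for *Cubn*, *Amn*, *Dab2* and *Lrp2*, with 50.1% for *Ttr* and 89.5% for *Trf*. Levels in these cells ran together for *Cubn* and *Dab2* (Pearson correlation 0.809 over 45 cells) and for *Cubn* and *Amn* (0.734), less so for *Cubn* and *Lrp2* (0.356). *Pou5f1*, an epiblast marker, had medians of 849 CPM in unnamed, 1397 CPM in mesoderm-like and 150 CPM in endoderm-like cells. Whether these reads came from RNA of other cells was not tested, so a read outside the endoderm-like class at E6.5 is not taken here as expression.

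Over 16 groups of cells (embryo and class, at least 3 cells each), the levels of *Cubn*, *Amn* and *Dab2* were each other's nearest among 11519 genes or close to it. *Cubn* was most like *Dab2* (Pearson correlation 0.988), then *Col4a1* (0.984), *Amn* (0.976), *Gata4* (0.969) and *Pcbd1* (0.958). *Amn* was most like *Cubn* (0.976), *Dab2* (0.975), *Ctsz* (0.969), *Pcbd1* (0.965) and *Ctsl* (0.958), and *Dab2* was most like *Cubn*, *Amn*, *Myo6* (0.972), *Col4a1* (0.971) and *Pcbd1* (0.956). *Col4a1* and *Gata4* had served as endoderm markers, so lineage enters this order. The groups include E6.5 mesoderm-like and unnamed cells, whose reads of these genes are not taken here as expression. Their part in the correlations was not tested.

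*Lrp2* had other neighbours. Its 5 nearest genes were *Myo7a* (0.949), *Lmna* (0.946), *Serpinh1* (0.938), *Creb3l2* (0.932) and *Srgn* (0.927), and *Cubn* came at rank 49 (0.861), *Dab2* at rank 66 (0.841) and *Amn* at rank 112 (0.810). The groups share embryos and stages, so these are descriptions with no test.

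The endocytosis list held 70 further genes by role, of which 69 had a row in the table. It was chosen with earlier results of these data known. Its counts beside shares of all genes are therefore a description with no test. In the E4.5 lineages 11 of 66 compared genes were higher by at least 1 in the endoderm-like cells of every embryo (3.25% of all genes) and 2 were lower (2.57% of all genes), with a list median of 0.93 against 0.04 over all genes. By role the 11 were 4 of 11 genes of endosomal acidification and the lysosome, 2 of 2 receptor chaperones, 2 of 10 endosomal and recycling genes, 2 of 8 ligands and 1 of 17 adaptors, and none were among 13 other receptors or 5 coat and scission genes. The largest differences were 5.20 ± 1.04 for *Clcn5*, an endosomal chloride/proton exchanger, 4.56 ± 1.65 for *Myo6*, an actin motor that binds *Dab2*, and 3.77 ± 0.89 for *Lrpap1*, a chaperone of LDL receptor family members (SD, n = 5 embryos).

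The genes with the largest differences in the other direction were *Dab1*, an adaptor related to *Dab2* (-3.81 ± 0.95), *Tfrc*, the transferrin receptor (-3.28 ± 1.73), and *Gc*, the vitamin D binding protein (-2.46 ± 1.12). Between -4.39 and -0.23 in single embryos, *Tfrc* missed the rule in at least 1 embryo. In the E5.5 embryo *Clcn5*, *Myo6* and *Lrpap1* were again higher, by 1.92, 5.90 and 5.10, and *Tfrc* lower by 4.59 on the log2 scale.

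From E4.5 to E6.5, 13 of 68 tested genes of the list rose (2.11% of all genes) and 2 fell (1.82% of all genes), with a list median of -0.04. Without either one of the E6.5 embryos the counts were 7 and 1. Of the 13, 8 were among the 9 tested ligands, 3 among 14 other receptors, 1 was an endosomal gene and 1 a lysosomal gene. *Rbp4*, the retinol carrier, had no read in any of the 5 E4.5 embryos and 423 and 305 CPM in the E6.5 embryos, at least 8660-fold higher against a floor of 3 reads over the group. *Sorl1*, a sorting receptor, was likewise at 0 in all E4.5 embryos and at 15.3 and 18.3 CPM at E6.5, at least 323-fold higher. *Apoa1*, the main protein of HDL, was at 0 to 3.42 CPM at E4.5 and at 4117 and 3179 CPM at E6.5, a rise of 11.15 ± 0.60 on the log2 scale (adjusted p = 1.96e-10).

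The 2 genes of the list that fell were the 2 receptor chaperones. *Lrpap1* was at 2422, 1746, 1649, 1994 and 1986 CPM in the E4.5 embryos, at 1345 CPM at E5.5 and at 442 and 306 CPM at E6.5. It fell by 2.39 ± 0.35 from E4.5 to E6.5 (adjusted p = 0.000186) and by 1.85 ± 0.43 from E5.5 to E6.5 (adjusted p = 0.0131), and no gene of the list was called lower in the latter comparison without E6.5 embryo 2. *Mesd*, which helps LDL receptor family members to fold, was at 754, 527, 407, 453 and 361 CPM at E4.5, at 168 CPM at E5.5 and at 121 and 197 CPM at E6.5, and fell by 1.66 ± 0.41 (adjusted p = 0.0221) from E4.5 to E6.5.

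From E4.5 to E5.5, 12 genes of the list rose (4.47% of all genes) and 4 fell (10.4%). The largest rises of the list were those of the ligands *Rbp4* and *Apoa1* and the receptor *Sorl1*, with *Rbp4* at 582 CPM, *Apoa1* at 7294 CPM and *Sorl1* at 46.5 CPM in the E5.5 embryo. *Eea1*, an endosomal tether, and *Ocrl*, a lipid phosphatase of endosomes, had no read in the 7 E5.5 cells, at least 207-fold and 181-fold lower than at E4.5. From E5.5 to E6.5, 4 genes rose (6.44% of all genes), *Eea1* and *Ocrl* among them, and 2 fell (1.14%), *Lrpap1* and *Atp6v1b2*, a proton pump subunit (-1.82 ± 0.56, adjusted p = 0.0492). *Ocrl* had 152 reads in E6.5 embryo 1 and 1 read in embryo 2, and without embryo 1 the count of genes that rose was 2. Without E6.5 embryo 2, or E4.5 embryo 2 or 4, the count that fell was 0, 1 and 1. With a single embryo at E5.5, an absence there rests on 7 cells.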

How the data were processed

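Single-cell RNA-seq counts of C57Bl/6Babr embryo cells of 3 stages were used as deposited by the authors, as raw whole-number counts of reads per gene without molecular identifiers. The submitters' processing notes name Trim Galore 0.4.2, HISAT2 2.1.0, featureCounts and GRCm38, and the annotation and strand setting used for counting are not given in the sources used here. Because Smart-seq2 reads are not molecules, intervals and floors cover counting error only.

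The filter on cells asked for 50000 reads and 2000 detected genes, which left 217 of 264, at 112008 to 8904445 reads per kept cell. Stage and embryo came from the labels, and 21907 of 22084 identifiers matched a symbol. Levels were log2(CPM + 1) unless another scale is named. Cells were clustered within each stage (scanpy 1.11.5, 2000 variable genes, 20 principal components, 5 neighbours, Leiden resolution 0.3) without the 4 genes and the endocytosis list, and the clusters came out the same under 10 of 10 seeds. A cluster took the name of the list with the largest share of raised markers where at least 3 were raised. These settings were chosen after seeing the data. Doublets were not called, no 2 cells of a stage correlated above 0.914, and 0 columns belonged to other samples.

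Reads of endoderm-like cells were summed per embryo and stages compared over embryos with edgeR 4.0.16 (TMM, quasi-likelihood test, Benjamini-Hochberg adjustment over all 13229 genes tested, threshold 0.05) in R 4.3.3, with DESeq2 1.42.0 and limma 3.58.1 as alternatives, and the fit was tested on simulated data, where it missed part of the changed genes, so a gene past no threshold is not shown to be stable. All embryos entered 1 fit, so that the lone E5.5 embryo borrows the spread of the others, and p-values measure the spread between embryos. Exact 95% binomial intervals are Clopper-Pearson. The highest share that no read allows was set at 3 counts. Exon lengths came from GENCODE annotation of GRCm38 and promoters from RefSeq.

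Named genes were the 4 genes, the endocytosis list by role, in the stage comparisons its 3 largest called changes in each direction, in the lineages its 3 largest differences in each direction among those with 1 sign in every embryo, and the 5 genes most correlated with each of the 4. An item of the list that this rule would name is not reported here. The members and lists were chosen with earlier results of these data known. Alternatives covered the test, normalization, filters, pseudocount, lineage rule, cell prefix, embryo number and left-out embryos.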

Additional observations from a re-analysis of the deposited data

Results flagged for a closer look

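In 1 of 16 groups checked for a sample far from the others, *Lrp2* in E4.5 endoderm-like cells, embryo 4 had a mean level of 10.39 on the log2(CPM + 1) scale. The nearest of the other 4 embryos was at 11.16 and the highest at 11.42, and the gap was 0.748 of the whole range, above the critical value of 0.710. Chance marks about 1 in 20 such groups. Embryo 4 gave the most endoderm-like cells, 18 of 50.

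The E5.5 cell that was left unassigned was left out of both classes and entered the stage comparisons only as an alternative. It held signal above every E5.5 epiblast-like cell for 3 of the 4 genes. *Cubn* was at 193 CPM in it, where no epiblast-like cell had a read. *Amn* was at 1421 CPM against at most 91.97 CPM, *Dab2* was at 521.2 CPM against at most 45.9 CPM, and *Lrp2* had no read. The cell held 2559582 reads and came from the same embryo as the endoderm-like cells.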

How the results depend on the processing

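Shares of endoderm-like cells with a read stayed within their exact interval under all alternatives run, 46 of 46 values. The E4.5 lineage differences moved by less than their SD over embryos in 36 of 36 values. That SD was 1.83 for *Dab2* to 2.69 for *Amn* on the log2 scale, so a large shift could count as unchanged. Of 248 alternative values for stage differences of the 4 genes, 208 kept their direction and side of the threshold, 14 came to pass it, 19 ceased to pass it and 7 reversed. All values are log2 differences or counts of genes, and the cause of each change was not tested. For E6.5 minus E4.5, *Cubn* passed with DESeq2 (-1.28), without the filter on low counts (-1.28), with stricter cells (-1.30), with limma and a pseudocount of 1 (-1.43) or 0.1 (-1.43), with lineage by marker difference (-1.97) and with all kept cells (-2.12). *Dab2* passed with DESeq2 (-1.22), without the filter (-1.24), with limma and 0.1 (-0.98), by marker difference (-1.64) and with E4.5 prefix P2 alone (-1.47). *Amn* turned to 0.0102 with limma and a pseudocount of 1, to 0.0103 with 0.1 and to 0.0167 in endoderm-like cells with a marker difference of at least 2. For E5.5 minus E4.5, *Cubn* missed the threshold with stricter cells (-1.37), by marker difference (-1.69), with at least 5 cells per embryo (-1.71) and with a marker difference of at least 2 (-1.62), and *Lrp2* did so in the same settings (-1.45, -1.85, -1.71 and -1.70) and with prefix P1 alone (-1.62), while *Amn* turned to -1.29 with all kept cells. For E6.5 minus E5.5, *Lrp2* missed the threshold with limma and a pseudocount of 1 (-1.92), all kept cells (-1.06), at least 5 cells (-1.45) and a marker difference of at least 2 (-1.92). In that comparison *Cubn* turned to -0.28 by marker difference and *Dab2* to 0.98 with all kept cells. The settings with a marker difference of at least 2, with the unassigned E5.5 cell and without the 5 mixed epiblast-like cells were added once the data had been seen.

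The counts of the endocytosis list moved in 33 of 124 values. For E6.5 minus E4.5 the 13 higher genes became 8 with all kept cells and 7 with at least 5 cells per embryo, and the 2 lower became 0 with at least 5 cells and 1 with prefix P2. For E5.5 minus E4.5 the 12 higher became 4 with all kept cells, and the 4 lower became 8 with DESeq2, 8 with stricter cells, 7 and 12 with limma (pseudocount 1 and 0.1) and 0 with all kept cells. For E6.5 minus E5.5 the 4 higher became 7, 7, 8, 22 and 0 in that order of settings. The 2 lower became 4 without the filter or with prefix P1, 1 with a marker difference of at least 2 or with the unassigned cell added, and 0 with limma under both pseudocounts, by marker difference, with all kept cells and with at least 5 cells.

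Leaving out each embryo in turn gave, for E6.5 minus E4.5, -2.03 to -0.81 for *Cubn*, -1.89 to -0.82 for *Dab2*, -0.60 to -0.15 for *Amn*, and 7 to 14 higher and 1 to 2 lower list genes. For E5.5 minus E4.5 it gave -1.78 to -1.51 for *Cubn* and -1.86 to -1.52 for *Lrp2*. For E6.5 minus E5.5 it gave -0.43 to 0.83 for *Cubn*, -3.08 to -1.45 for *Lrp2*, -1.46 to -0.34 for *Dab2*, 2 to 4 higher and 0 to 3 lower list genes. No E5.5 comparison exists without the E5.5 embryo.

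Embryo numbers 1 and 2 occur at both E4.5 and E6.5 but did not pair the embryos, with correlations of -0.0063 and -0.0074 between the deviations of same-numbered embryos. With a replicate block the E6.5 minus E4.5 values were -1.42 for *Cubn*, -0.11 for *Amn*, -3.82 for *Lrp2* and -0.90 for *Dab2*, no call of the 4 genes changed, and the list had 6 higher genes. Depth limits low levels most, and E5.5 rests on 7 cells and E6.5 embryo 2 on 2.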
